A study of Mus musculus with 2 samples.

Results

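Ptgds-positive mature oligodendrocytes of the injured mouse spinal cord were selected nucleus by nucleus from unique molecular identifier (UMI) counts. A kept nucleus had at least 500 UMIs, at least 300 detected genes and under 5% of UMIs from mitochondrial genes. It counted as an oligodendrocyte when it held at least 4 UMIs summed over the oligodendrocyte genes St18, Mog, Mag, Prr5l and Mobp, at most 5 over the neuronal genes Snhg11, Rbfox3 and Syt1, and at most 1 over the immune genes Ptprc, Inpp5d and Csf1r. Of 10837 such oligodendrocytes, the 6122 with at least 3 Ptgds UMIs and no Klk6 UMI form the Ptgds-positive set, among 31743 kept nuclei and 32380 deposited barcodes. The other 4715 gated oligodendrocytes were 3654 with at least 1 Klk6 UMI (Klk6-positive) and 1061 with neither Klk6 nor 3 Ptgds UMIs (Ptgds-low).

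Nuclei came from wild-type C57BL/6 mice of 6 to 8 weeks, all of which had received a contusion at the thoracic level T10 and were killed 7 days later. The AEVs group was injected into the tail vein on 5 consecutive days with athlete-derived extracellular vesicles, membrane particles shed by cells, at 100 µg of vesicle protein in 100 µL of phosphate-buffered saline. The PBS group received 100 µL of the saline alone. Each group is 1 pool of 3 mice measured as 1 single-nucleus library that counts the 3-prime ends of transcripts. With 1 library per group no difference between AEVs and PBS has a replicate check, no test is possible, and treatment and library cannot be told apart. Ranges in parentheses after a value are 95% intervals for counting error only and leave out differences between mice, dissections and library preparations.

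Oligodendrocytes wrap axons in myelin, and mature ones in the cord fall into several types. A Ptgds-type, described in mice as common in grey matter and in the adult cord, makes lipocalin-type prostaglandin D2 synthase, the enzyme that turns prostaglandin H2 into prostaglandin D2 and is also secreted as a carrier of small lipophilic molecules. A Klk6-type, common in white matter of the cord, makes kallikrein 6, a secreted serine protease. Prostaglandin D2 acts on the receptors encoded by Ptgdr and Ptgdr2.

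In the GENCODE M21 annotation of mm10 the protein-coding gene Ptgds (ENSMUSG00000015090) spans chr2:25466709-25470046 on the minus strand, Opalin (ENSMUSG00000050121) chr19:41061710-41077113 and Apod (ENSMUSG00000022548) chr16:31296192-31314808 on the same strand, and Cdkn1a (ENSMUSG00000023067) chr17:29090976-29100727, Il33 (ENSMUSG00000024810) chr19:29925114-29960718 and Cryab (ENSMUSG00000032060) chr9:50751325-50756636 on the plus strand. The promoters of 3 of these genes on which the description turns are shown, Ptgds because it sets the membership, Opalin because it marks these nuclei without having been used to choose them, and Apod because it is the lipocalin gene with the highest ratio of AEVs to PBS. Each is 250 bases before to 30 bases after the RefSeq start on GRCm38.p6, read along the minus strand, at chr2:25469720-25469999 for Ptgds, chr19:41077084-41077363 for Opalin and chr16:31314779-31315058 for Apod. Capitals mark ACAAAG on either strand, the core bound by SOX proteins such as SOX10, a transcription factor that oligodendrocytes require.
Ptgds: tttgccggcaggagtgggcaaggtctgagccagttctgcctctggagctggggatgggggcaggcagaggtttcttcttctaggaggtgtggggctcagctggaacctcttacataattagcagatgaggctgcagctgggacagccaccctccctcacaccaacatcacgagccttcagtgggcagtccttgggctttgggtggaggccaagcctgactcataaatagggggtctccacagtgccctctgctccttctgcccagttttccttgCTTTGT
Opalin: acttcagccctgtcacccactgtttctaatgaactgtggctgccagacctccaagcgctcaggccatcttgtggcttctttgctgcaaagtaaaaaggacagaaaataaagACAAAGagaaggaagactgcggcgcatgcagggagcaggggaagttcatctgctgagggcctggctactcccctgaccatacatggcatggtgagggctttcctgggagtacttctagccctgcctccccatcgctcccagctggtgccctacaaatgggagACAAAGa
Apod: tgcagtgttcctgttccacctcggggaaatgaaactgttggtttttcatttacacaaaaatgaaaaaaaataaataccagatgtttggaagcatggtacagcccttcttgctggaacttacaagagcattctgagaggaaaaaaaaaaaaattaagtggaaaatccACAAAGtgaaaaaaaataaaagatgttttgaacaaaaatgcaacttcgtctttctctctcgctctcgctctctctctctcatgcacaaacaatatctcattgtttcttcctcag
The core occurred 1 time in the Ptgds, 2 times in the Opalin and 1 time in the Apod window, and 17.9% of 32851 RefSeq promoters of the same length hold it on either strand. AGAACA, the core recognised by the glucocorticoid receptor, is in 17.8% of promoters and the TATAAA box in 13.1%, and the letters of these motifs do not overlap. Neither had a match in these 3 windows on either strand.

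The AEVs library held 81875882 UMIs over 17055 barcodes and the PBS library 82953601 UMIs over 15325 barcodes, and 16949 AEVs and 14794 PBS nuclei were kept. More PBS than AEVs barcodes failed the mitochondrial limit, at 103 in AEVs and 527 in PBS. The 3589 AEVs members held 7909043 UMIs with a median of 1887 UMIs and 1120 genes per nucleus, and the 2533 PBS members held 6661952 UMIs with medians of 2188 UMIs and 1217 genes. Depth therefore differed slightly between the libraries in these nuclei. The libraries shared 177 barcodes, 10 of them among members.

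The label was checked against the 5 marker genes Ptgds, Opalin, Mog, St18 and Mal, given as UMIs per 1000000 UMIs of the set (CPM). Opalin, which encodes a membrane glycoprotein of central myelin, measured 465 CPM in Ptgds-positive against 115 CPM in Klk6-positive and 76.1 CPM in Ptgds-low nuclei of the AEVs library, and 541 CPM against 120 and 152 CPM in the PBS library. Mal, a proteolipid of compact myelin, measured 2032 CPM in Ptgds-positive against 1106 CPM in all other gated oligodendrocytes of the AEVs library, and 1695 against 795 CPM in the PBS library. Both therefore stood higher in the Ptgds-positive set in each library. Mog, a protein of the outer myelin surface and one of the gate genes, did not separate the sets, at 1369 CPM in Ptgds-positive against 1339 CPM in other oligodendrocytes of the AEVs library and 1248 against 1176 CPM in the PBS library. St18, a zinc finger transcription factor of the gate, was slightly lower in the Ptgds-positive set, at 1736 against 2032 CPM in the AEVs library and 3029 against 3252 CPM in the PBS library.

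The values next to the cut-offs show a gradual border. Members with exactly 3 Ptgds UMIs numbered 83 in the AEVs and 89 in the PBS library, and their Opalin level was 84.4 CPM in AEVs and 195 CPM in PBS. Nuclei just outside, with 2 Ptgds UMIs and no Klk6, numbered 116 and 145 and held 60.8 CPM of Opalin in AEVs and 225 CPM in PBS. Nuclei with at least 3 Ptgds UMIs that were left out for 1 Klk6 UMI, 438 in AEVs and 274 in PBS, had 329 CPM of Opalin in AEVs and 349 CPM in PBS. Nuclei that entered with a gate sum of 4 numbered 99 in AEVs and 34 in PBS, with 188 and 149 CPM of Opalin, and those left out at a sum of 3 numbered 99 and 32, with 141 and 107 CPM.

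Ptgds itself was spread widely within the set. A member of the AEVs library held a median of 67 Ptgds UMIs, with 10 at the 10th and 175 at the 90th percentile, and a member of the PBS library a median of 32, with 6 and 94. Per 10000 UMIs of the nucleus the medians were 343 in AEVs and 137 in PBS members, against 8.70 and 3.46 in Klk6-positive nuclei. Transcripts of Ptgds were also found outside oligodendrocytes, as free RNA or expression. Nuclei of the neuron gate held 297 CPM (287 to 307) in the AEVs and 158 CPM (148 to 169) in the PBS library, and 23.0% of them in AEVs and 11.6% in PBS carried at least 3 Ptgds UMIs, at median depths of 5814 and 6147 UMIs. Fibroblast nuclei, which in the meninges express this gene strongly, held 15942 CPM in AEVs and 8692 CPM in PBS.

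**Figure D1:**
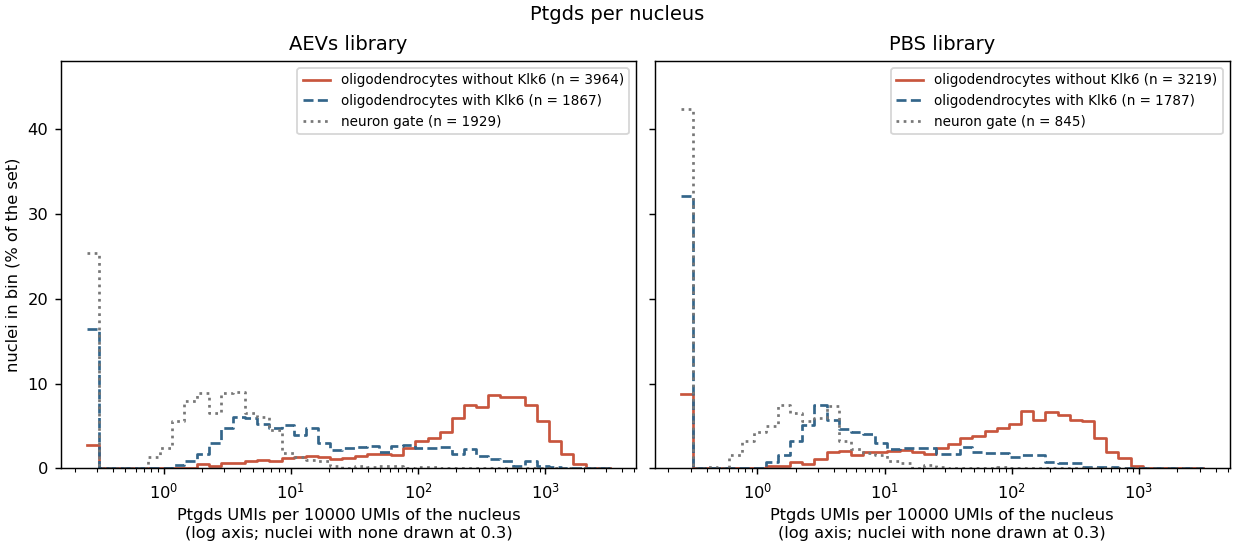
Distribution over nuclei of Ptgds UMIs per 10000 UMIs (horizontal log axis, nuclei with none drawn at 0.3) as a percentage of each set (vertical axis) in the AEVs (left) and PBS (right) libraries, for gated oligodendrocytes without Klk6 (solid), with Klk6 (dashed) and nuclei of the neuron gate (dotted). The main hump of the nuclei without Klk6 lies farther right in AEVs, where the median of the members is 343, than in PBS, where it is 137.

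Members made up a larger share of oligodendrocytes in the AEVs library. They were 61.6% (60.3 to 62.8) of gated oligodendrocytes in AEVs and 50.6% (49.2 to 52.0) in PBS, a ratio of 1.22 (1.16 to 1.28), and 21.2% of kept nuclei in AEVs and 17.1% in PBS, a ratio of 1.24 (1.18 to 1.30). Klk6-positive nuclei were 32.0% in AEVs and 35.7% in PBS, a ratio of 0.897 (0.840 to 0.958). Ptgds-low nuclei were 6.43% in AEVs and 13.7% in PBS, a ratio of 0.469 (0.413 to 0.533). The ratio of shares was larger at higher cut-offs of Ptgds, the gene that sets the membership. Members with at least 50 Ptgds UMIs were 38.1% of gated oligodendrocytes in AEVs and 16.8% in PBS, a ratio of 2.28 (2.10 to 2.47), and those with at least 100 were 19.4% in AEVs and 4.21% in PBS, a ratio of 4.61 (3.98 to 5.37). With Opalin in place of Ptgds, a choice made after seeing the data, the larger share was no longer seen. Gated oligodendrocytes with at least 1 Opalin UMI and no Klk6 were 32.1% (30.9 to 33.3) in AEVs and 34.3% (33.0 to 35.7) in PBS, a ratio of 0.933 (0.874 to 0.997). This Opalin share was not computed at equal depth. The median depth of gated oligodendrocytes was 2084 UMIs in AEVs and 2458 UMIs in PBS. From the share of Ptgds-positive nuclei, more cells of the type and more Ptgds RNA per nucleus cannot be told apart. With every nucleus thinned to 1000 UMIs before the Ptgds and Klk6 conditions, members were 62.2% in AEVs and 48.6% in PBS. Klk6-positive nuclei were then 21.2% in AEVs and 22.4% in PBS, a ratio of 0.947 (0.871 to 1.03), so that interval includes 1. Ptgds-low nuclei were 16.6% and 29.0%, a ratio of 0.571 (0.525 to 0.621). The thinning left out 238 AEVs and 170 PBS nuclei that were shallower.

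Ptgds measured 37454 CPM in AEVs and 16106 CPM in PBS members, a log2 ratio of 1.22, which is a description because the rule uses this gene. Without the Ptgds condition, in gated oligodendrocytes with Opalin and without Klk6, it measured 39337 CPM in AEVs and 14954 CPM in PBS, 2.63-fold higher. The other oligodendrocytes had lower levels with a similar ratio. Klk6-positive nuclei held 5054 CPM in AEVs and 2109 CPM in PBS, 2.40-fold higher, and kept nuclei outside the oligodendrocyte gate held 1824 CPM in AEVs and 954 CPM in PBS, 1.91-fold higher. Within the sets outside the gate, endothelial nuclei ran the other way, at 765 CPM (675 to 863) in 192 AEVs nuclei and 1784 CPM (1613 to 1968) in 127 PBS nuclei.

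Around Ptgds, most other genes of prostaglandin metabolism were at low levels. Ptges3, which acts as a prostaglandin E synthase and as a co-chaperone of HSP90, was the most abundant of them at 120.1 CPM in AEVs and 135 CPM in PBS members. Pla2g4a, the cytosolic phospholipase that frees arachidonic acid, measured 36.2 CPM in AEVs and 45.03 CPM in PBS members, against 180 and 200.1 CPM in other oligodendrocytes. It was therefore lower in Ptgds-positive nuclei in both libraries, with log2 ratios of -2.32 in AEVs and -2.15 in PBS. Ptgs1, cyclooxygenase 1, stood at 2.66 CPM in AEVs and 1.501 CPM in PBS members, and Ptgs2, the inducible cyclooxygenase, at 0.253 and 1.35 CPM. Both cyclooxygenases, which make the substrate of Ptgds, were thus close to the limit of detection. Hpgds, the hematopoietic prostaglandin D synthase, measured 7.71 CPM in AEVs and 4.65 CPM in PBS members. Without nuclei called as doublets its log2 ratio of 0.73 reversed to -0.37. Tbxas1, thromboxane A synthase, measured 3.92 CPM in AEVs and 8.26 CPM in PBS, and Ptges2, a membrane-associated prostaglandin E synthase, 14.7 and 12.9 CPM. Of 9 prostanoid receptor genes, Ptger1 alone reached 20 UMIs over both libraries, at 1.52 CPM in AEVs and 3.15 CPM in PBS, while Ptgdr had 0.126 and 0.3002 CPM. Ptgdr2 and Ptgir had no UMI in members of either library. Hpgd, the dehydrogenase that begins prostaglandin breakdown, measured 12.8 CPM in AEVs and 14.4 CPM in PBS members. Other oligodendrocytes held 4.17 CPM in AEVs and 9.56 CPM in PBS. In tertiles of members by Ptgds level within each library, Hpgd measured 27.6, 2.41 and 2.72 CPM from low to high in AEVs. In PBS it measured 31.0, 2.73 and 3.92 CPM, so the middle and high tertiles stood below other oligodendrocytes in both libraries. The low tertile also held the most astrocyte marker RNA, and its part in the Hpgd level was not tested. Of 14233 genes with at least 20 UMIs, 61% were higher in AEVs members. Beside that share, 5 of the 8 measured synthesis genes, Ptgds included, were higher and 3 lower, median log2 ratio 0.35. That median turned to -0.062 without called doublets and to -0.0047 after thinning.

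Lipocalins bind small hydrophobic ligands, and Ptgds belongs to this family. Apod, apolipoprotein D, was the second most abundant lipocalin transcript of the members and measured 11865 CPM in AEVs and 1911 CPM in PBS, 6.21-fold higher. It was higher still outside the set, at 34311 CPM in AEVs and 5681 CPM in PBS other oligodendrocytes, so that members stood below them with log2 ratios of -1.53 in AEVs and -1.57 in PBS. Lcn2, lipocalin 2, an injury-induced protein that binds iron carriers, measured 42.4 CPM in AEVs and 43.2 CPM in PBS members, a log2 ratio of -0.03 (-0.26 to 0.20), while in Klk6-positive nuclei the ratio was 1.99 (1.56 to 2.44). That difference between the sets was not tested.

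Against all other gated oligodendrocytes, 101 of 9743 tested genes (1.04%) were at least 2-fold higher in Ptgds-positive nuclei in both libraries and 298 (3.06%) at least 2-fold lower. The rule chose these nuclei from the same counts, so the following is a description of the set and no test. Rasal1, which encodes a GTPase-activating protein that dampens Ras signalling, led the higher genes. It measured 25.5 CPM in Ptgds-positive against 2.53 CPM in other nuclei of the AEVs library and 51.8 against 8.11 CPM in the PBS library. Synpr, synaptoporin of vesicle membranes, measured 105 against 15.8 CPM in AEVs and 202 against 38.0 CPM in PBS. Kit, the receptor tyrosine kinase for stem cell factor, measured 36.3 against 5.65 CPM in AEVs and 36.8 against 7.26 CPM in PBS. All 3 were several times higher in both libraries. Kirrel3, an adhesion molecule of the immunoglobulin superfamily, was the most abundant of the 10 named as highest, with 1031 against 243 CPM in AEVs and 1304 against 357 CPM in PBS. Gabrr2, a subunit of GABA receptors, measured 151 against 22.3 CPM in AEVs and 42.8 against 11.01 CPM in PBS. Vangl1, a planar cell polarity protein, had log2 ratios of 2.37 in AEVs and 2.14 in PBS, Kif21b, a kinesin motor, 2.22 and 1.98, Itgad, an integrin alpha subunit, 1.90 and 1.96, and Btbd16 2.08 and 2.84. Opalin completed the list with 2.08 in both libraries. Gabrr2 and Itgad were also higher in AEVs than in PBS members, Itgad with 277 CPM in AEVs and 95.3 CPM in PBS. Some of the 10 were higher still in another gated class, with both libraries pooled. Synpr and Kit measured 184 and 40.7 CPM in the neuron gate, against 150 and 36.5 CPM in members. Vangl1 measured 49.9 CPM in fibroblast nuclei against 32.05 CPM, and Kif21b 87.5 CPM in myeloid nuclei against 42.1 CPM. The rest of the 10 were highest in members. The part of free RNA in these levels was not tested.

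Genes lower in the Ptgds-positive set had wider ratios. Dlc1, a GTPase-activating protein and tumour suppressor, measured 38.1 CPM in Ptgds-positive against 632 CPM in other oligodendrocytes of the AEVs library and 32.4 against 396 CPM in the PBS library. Hmcn1, hemicentin 1 of the extracellular matrix, measured 5.06 against 114 CPM in AEVs and 5.55 against 118 CPM in PBS. Nkx2-9, a homeobox transcription factor, measured 1.90 against 36.6 CPM in AEVs and 1.35 against 28.1 CPM in PBS. Dlc1 was found in 4.01% of AEVs and 4.22% of PBS members, while Hmcn1 and Nkx2-9 stood at a few CPM. Lmo7 had log2 ratios of -4.44 in AEVs and -5.53 in PBS, Arntl2, a partner of the clock protein CLOCK, -4.16 and -4.57, Scel, sciellin of cornified envelopes, -3.78 and -4.94, and Gpr176, an orphan receptor, -4.12 and -3.95. Colgalt2 (-3.84 and -3.65), St8sia5, a sialyltransferase of gangliosides (-3.29 and -3.83), and Clgn, a chaperone of the endoplasmic reticulum (-3.75 and -3.18), complete the 10 lowest, with AEVs given first.

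**Figure D2:**
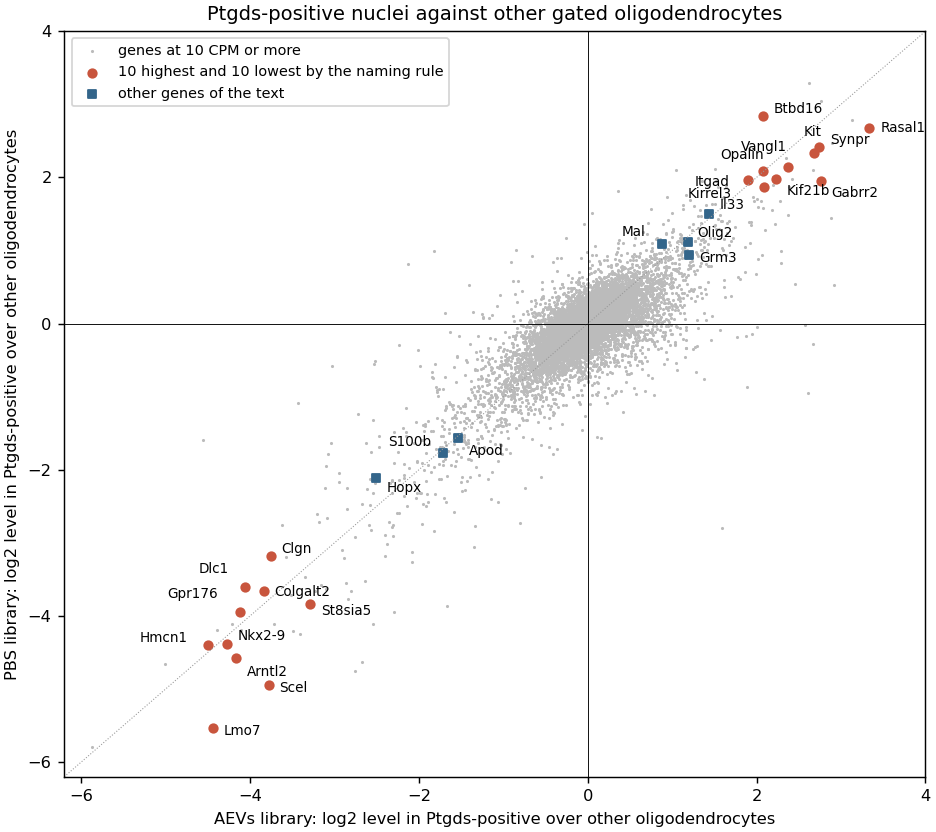
Each point is a gene, with the log2 ratio of its level in Ptgds-positive over other gated oligodendrocytes in the AEVs library (horizontal axis) and in the PBS library (vertical axis), and the dotted line marks equal ratios. Named genes lie near that line in both libraries, from Rasal1 at 3.34 and 2.67 to Lmo7 at -4.44 and -5.53.

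Most of the others, 3654 of 4715, were Klk6-positive. Against these alone 172 of 9519 genes (1.81%) were at least 2-fold higher in Ptgds-positive nuclei in both libraries and 309 (3.25%) at least 2-fold lower. Fbn2, fibrillin 2 of microfibrils, joined the 5 named as higher, at 25.3 CPM in Ptgds-positive against 4.12 CPM in Klk6-positive nuclei of the AEVs library and 86.6 against 13.4 CPM in the PBS library. It was not higher than in Ptgds-low nuclei, which held 68.3 CPM in AEVs and 86.8 CPM in PBS. Art3, which has the fold of an ADP-ribosyltransferase, was the lowest, at 12.5 against 438 CPM in AEVs and 7.21 against 220 CPM in PBS. Its exons overlap those of Cxcl10 on the other strand, and the strand setting of the counting is not given in the sources used here. Efcc1 had log2 ratios of -4.35 in both libraries.

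Ptgds-low nuclei differed from the members in another way, with 72 of 5716 genes (1.26%) at least 2-fold higher in Ptgds-positive nuclei and 163 (2.85%) at least 2-fold lower. The 5 named as lowest in Ptgds-positive nuclei include genes of precursors and newly forming oligodendrocytes. Tnr, tenascin R of the perineuronal matrix, measured 86.1 CPM in Ptgds-positive against 1148 CPM in Ptgds-low nuclei of the AEVs library and 171 against 1253 CPM in the PBS library. Gpr17, a receptor of committed precursors, measured 4.80 against 78.3 CPM in AEVs and 10.2 against 88.3 CPM in PBS. Bmp4, a growth factor made at the same step, measured 3.79 against 70.5 CPM in AEVs and 5.10 against 72.1 CPM in PBS. Sox6, a transcription factor of precursors, had log2 ratios of -3.06 in AEVs and -2.83 in PBS, and Ptpro, a receptor tyrosine phosphatase, -3.91 and -2.85. Il33 was higher in the members, at 208 against 44.8 CPM in AEVs and 654 against 150 CPM in PBS.

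Genes known from Ptgds-type oligodendrocytes of mice did not all follow the name. Of 12, Ptgds itself included, 7 were higher by any amount in Ptgds-positive than in other oligodendrocytes in both libraries and 4 lower, where 33.3% of 13808 genes were higher and 38.4% lower by the same count. The choice of members used these counts, so nothing is read from the difference. Grm3, a metabotropic glutamate receptor, measured 850 against 371 CPM in AEVs and 983 against 512 CPM in PBS. Jph4, a junctophilin that couples membranes for calcium release, measured 24.7 against 8.03 CPM in AEVs and 47.3 against 21.2 CPM in PBS. Il33, a nuclear alarmin of the interleukin 1 family, measured 208 against 76.8 CPM in AEVs and 654 against 232 CPM in PBS. In contrast to these, S100b, a calcium-binding protein of glia, was lower at 154 against 505 CPM in AEVs and 180 against 615 CPM in PBS, as were Apod, Trf, transferrin, with log2 ratios of -0.35 in AEVs and -0.44 in PBS, and Pmp22, a myelin protein of peripheral nerve, with -1.03 and -0.52. All 6 listed genes of the Klk6-type, Klk6 itself included, were lower. Hopx, a homeodomain protein that binds no DNA, measured 52.5 against 298 CPM in AEVs and 32.9 against 142 CPM in PBS, and Klk6 is 0 by the rule. Among other lists, Olig2, a transcription factor of the lineage, measured 43.5 against 19.0 CPM in AEVs and 76.6 against 35.5 CPM in PBS. By any amount, and beside the same shares of all genes, 11 of 15 myelin structure genes were higher in Ptgds-positive nuclei in both libraries and 2 lower. These 15 include Mobp, Mog and Mag, which the rule uses in its gate, so nothing is read from the count. Of 18 glucocorticoid-responsive genes 16 were higher and none lower. Erbb4, a neuregulin receptor, measured 1446 against 514 CPM in AEVs and 2160 against 959 CPM in PBS, and Tspan2, a tetraspanin of myelin, 1109 against 531 CPM in AEVs and 863 against 400 CPM in PBS.

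Members were also divided into tertiles by Ptgds per 10000 UMIs within each library, with medians of 97.2, 343 and 760 in AEVs and of 39.2, 137 and 347 in PBS. Il33 and Hcn2, a pacemaker channel, were higher where Ptgds was higher. Hcn2 measured 92.6, 158 and 315 CPM from the low to the high tertile in AEVs and 192, 316 and 506 CPM in PBS. Il33 measured 144, 244 and 260 CPM in AEVs and 461, 742 and 834 CPM in PBS. Opalin was lowest in the low tertile and no higher in the high than in the middle tertile, at 277, 614 and 571 CPM in AEVs and 445, 649 and 553 CPM in PBS. S100b was highest in the low tertile, with 260, 80.8 and 79.9 CPM in AEVs and 254, 152 and 102 CPM in PBS. So was Serpina3n, an inflammation-induced serine protease inhibitor, with 318, 142 and 49.5 CPM in AEVs and 123, 61.5 and 35.3 CPM in PBS. The low tertile also held the most astrocyte marker RNA, as given below, and its part in these levels was not tested. The order of Apod differed between the libraries. It measured 16898, 10898 and 5602 CPM from the low to the high tertile in AEVs, and 1857, 1765 and 2171 CPM in PBS.

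**Figure D3:**
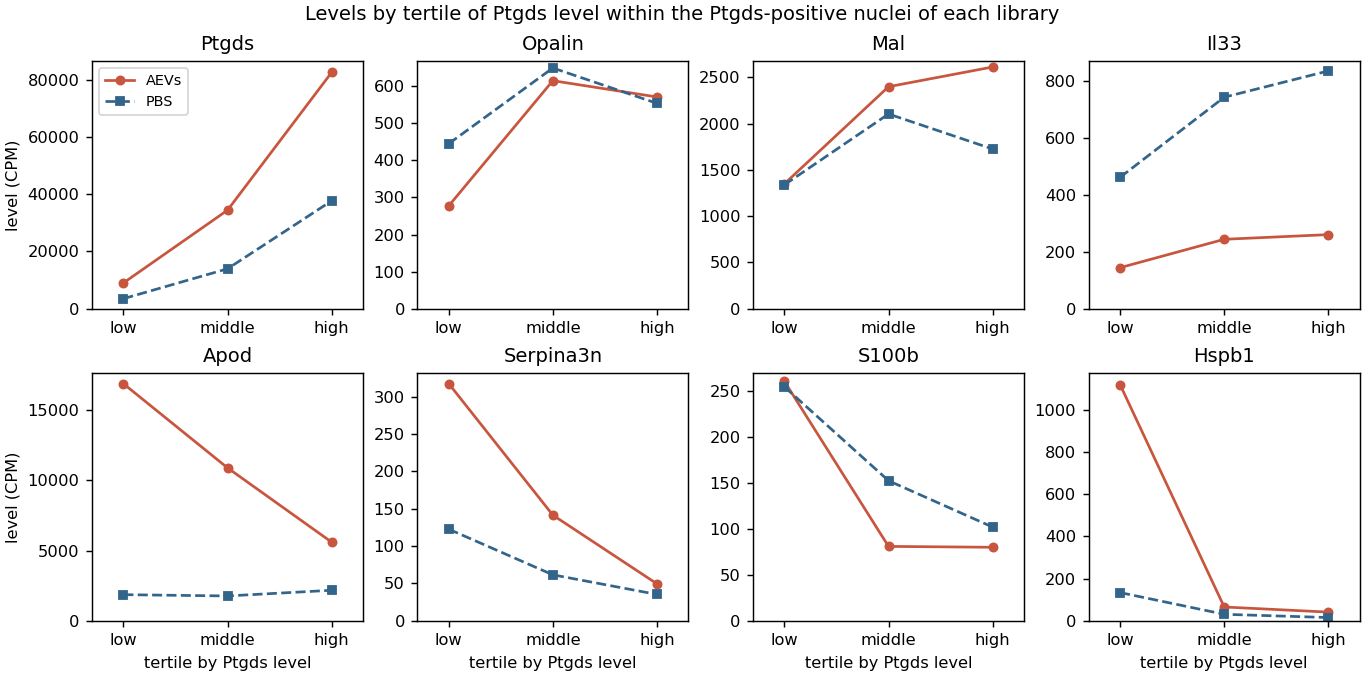
Level in CPM (vertical axes, from 0) of 8 genes in the low, middle and high tertile of Ptgds per nucleus within the members of the AEVs (circles, solid) and PBS (squares, dashed) libraries. Apod goes down with the Ptgds tertile in AEVs, to 5602 CPM, and stays between 1765 and 2171 CPM in PBS, and Hspb1 is concentrated in the low tertile of both.

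Astrocyte and precursor markers were highest in the low tertile of Ptgds. The summed level of 10 astrocyte markers was 2600 CPM in the low, 440 in the middle and 258 in the high tertile of AEVs and 2324, 608 and 337 CPM in PBS, and that of 8 precursor markers was 1078, 288 and 101 CPM in AEVs and 982, 436 and 152 CPM in PBS. Of the AEVs members 236 (6.58%) and of the PBS members 208 (8.21%) also passed the gate of another class, 148 and 107 of them that of astrocytes and 92 and 84 that of precursors. A set of the results was therefore also computed without these nuclei, an alternative added after seeing the data. Of that set, 33 moved, 2 reversed and 115 stayed the same, and only some of the values are given below. Over all members, summed levels in AEVs and PBS were 1268 and 1226 CPM for 10 astrocyte markers, 557 and 580 CPM for 8 precursor markers, 773 and 1114 CPM for 7 markers of differentiating oligodendrocytes and 451 and 538 CPM for 10 neuron markers. They were 119 and 226 CPM for 10 fibroblast, 60.3 and 90.1 CPM for 8 macrophage, 127 and 108 CPM for 8 microglia, 87.4 and 92.3 CPM for 8 endothelial, 48.4 and 56.1 CPM for 8 mural and 308 and 352 CPM for 8 Schwann cell markers. Sums were 45.1 and 20.6 CPM for 6 ependymal, 3.54 and 7.36 CPM for 7 lymphocyte and 92.4 and 43.7 CPM for 5 erythroid markers. Against other oligodendrocytes, all 10 neuron markers, Snhg11, Rbfox3 and Syt1 of the rule included, were higher by any amount in Ptgds-positive nuclei in both libraries. The same held for all 8 endothelial and 6 of 10 astrocyte markers, beside 33.3% of all genes. None of these markers was at 0 UMIs in either library, and their part in the results was not tested. For comparison, 10 oligodendrocyte markers, the gate genes included, summed to 20505 CPM in AEVs and 23934 CPM in PBS.

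Between the libraries, 277 of 9725 tested genes (2.85%) were at least 2-fold higher in AEVs members and 133 (1.37%) at least 2-fold lower, with at least 50 UMIs and 2% of nuclei in the higher library. Over the 14233 genes that reached 20 UMIs in both libraries together, the median log2 ratio was 0.11 and 61% were above 0, so ratios are best read against that value. Scaling by trimmed mean of M-values (TMM) would lower every log2 ratio by 0.085 and gave 225 higher and 177 lower genes, and setting the median of genes with at least 100 UMIs to 0 gave 221 and 181. The gene with the largest difference among those of the lists was Cdkn1a, which encodes p21, an inhibitor of cyclin-dependent kinases. It measured 293 CPM in AEVs and 22.5 CPM in PBS members, 13.03-fold higher. Its log2 ratio was 3.70 (3.47 to 3.95) in members and 2.65 (2.48 to 2.82) in Klk6-positive nuclei. At 1000 UMIs per nucleus it was found in 24.2% of AEVs and 1.55% of PBS members, and in 41.0% and 4.18% without thinning. Nuclei of the neuron gate, with median depths of 5814 UMIs in AEVs and 6147 in PBS, held 23.9 CPM of it in AEVs and 11.5 CPM in PBS, and 10.9% and 6.15% of them carried a UMI.

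Several regulators and enzymes were also several-fold higher in AEVs members. Cebpb, a leucine zipper protein that drives acute-phase genes, measured 37.0 CPM in AEVs and 3.60 CPM in PBS members, 10.3-fold higher. Hif3a, the hypoxia-inducible factor subunit 3 alpha, measured 256 CPM in AEVs and 45.2 CPM in PBS, 5.66-fold higher. Phyhd1, a dioxygenase of the phytanoyl-CoA hydroxylase family, measured 187 CPM in AEVs and 31.7 CPM in PBS, 5.91-fold higher. Garnl3, a protein with a GTPase-activating domain of the Rap type, measured 345 CPM in AEVs and 59.9 CPM in PBS, 5.76-fold higher. For Hif3a and Phyhd1 the log2 ratios in Klk6-positive nuclei, 2.36 and 2.15, were near those of the members, 2.50 and 2.56. For Garnl3 the ratio was 2.53 (2.37 to 2.68) in members and 1.03 (0.94 to 1.12) in Klk6-positive nuclei, and for Gipr, the receptor of glucose-dependent insulinotropic polypeptide, 2.46 (2.08 to 2.87) and 0.84 (0.63 to 1.06).

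The other genes named as highest rest on fewer UMIs or on part of the nuclei. Dcst2, best known from sperm membranes, had 121 UMIs in AEVs and 7 in PBS members, a log2 ratio of 3.86 (2.78 to 5.21), Acy3, an aminoacylase, 132 and 17 UMIs, a ratio of 2.71 (1.98 to 3.53), and Pilrb2, an immune receptor with a near copy, 97 and 12 UMIs, a ratio of 2.77 (1.90 to 3.77). Hspb1, the small heat shock protein HSP27, measured 488 CPM in AEVs and 67.8 CPM in PBS members, with 1120, 65.1 and 40.9 CPM in the low, middle and high tertile of Ptgds in AEVs. Its log2 ratio of 2.85 was 1.10 without the nuclei that passed another class's gate, among which astrocytes, the class with the highest Hspb1 level, were the most frequent. The ratio of Cdkn1a was 4.25 and that of Apod 2.65 without those nuclei. Exons of Cebpb overlap Tmem189, those of Phyhd1 Gm28035 and Gm28038, those of Pilrb2 Gm43495 and those of Cdkn1a an unnamed locus, so that their counts are uncertain to that extent. The same holds for other genes named here, with overlap on the same strand for Itgad, Gpr176, Trf, Mobp, Snhg11, Cntf and Pdgfra. It is on the other strand for Bfsp2, Bmp4, Car14, Cers2, Efcc1, Fbn2, Gpr17, Hmcn1, Hopx, Nkx6-2, Rbm3, St8sia5, Sult1a1, Tnr, Tspan2, Vangl1, Ptger1, Ptgdr, Ptgdr2, Ptgs1, Csf1r and Prr5l. Slc1a2, Tbxas1, Itgad and Pdgfra also overlap a gene on the other strand.

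Genes lower in AEVs members were led in level by Cryab, the chaperone alpha B-crystallin. It measured 436 CPM in AEVs and 1634 CPM in PBS members, 3.75-fold lower. The log2 ratio was -1.91 (-1.96 to -1.85) in members and -1.19 (-1.26 to -1.12) in Klk6-positive nuclei, and its exons overlap those of Hspb2. Lpar1, a receptor for lysophosphatidic acid, measured 64.1 CPM in AEVs and 228 CPM in PBS, 3.55-fold lower, and Chsy3, a chondroitin sulfate synthase, 65.9 and 249 CPM, 3.78-fold lower. Nckap5 measured 62.8 CPM in AEVs and 270.3 CPM in PBS, 4.30-fold lower, with a log2 ratio of -0.29 in Klk6-positive nuclei. Along the tertiles of Ptgds it measured 87.9, 56.3 and 33.6 CPM in AEVs and 506, 134 and 83.9 CPM in PBS, so that it was highest in the tertile with the most precursor transcripts. Gamt, which makes creatine, measured 14.9 CPM in AEVs and 51.3 CPM in PBS, and Bfsp2, a beaded filament protein, 26.8 and 106 CPM. Btc, betacellulin, a ligand of the epidermal growth factor receptor, had 21 UMIs in AEVs and 86 in PBS, and Cacna2d4, a calcium channel subunit, 22 and 80. Rras2, a small GTPase, had 59 and 217 UMIs, a log2 ratio of -2.13, or -1.38 without nuclei that passed another class's gate.

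**Figure D4:**
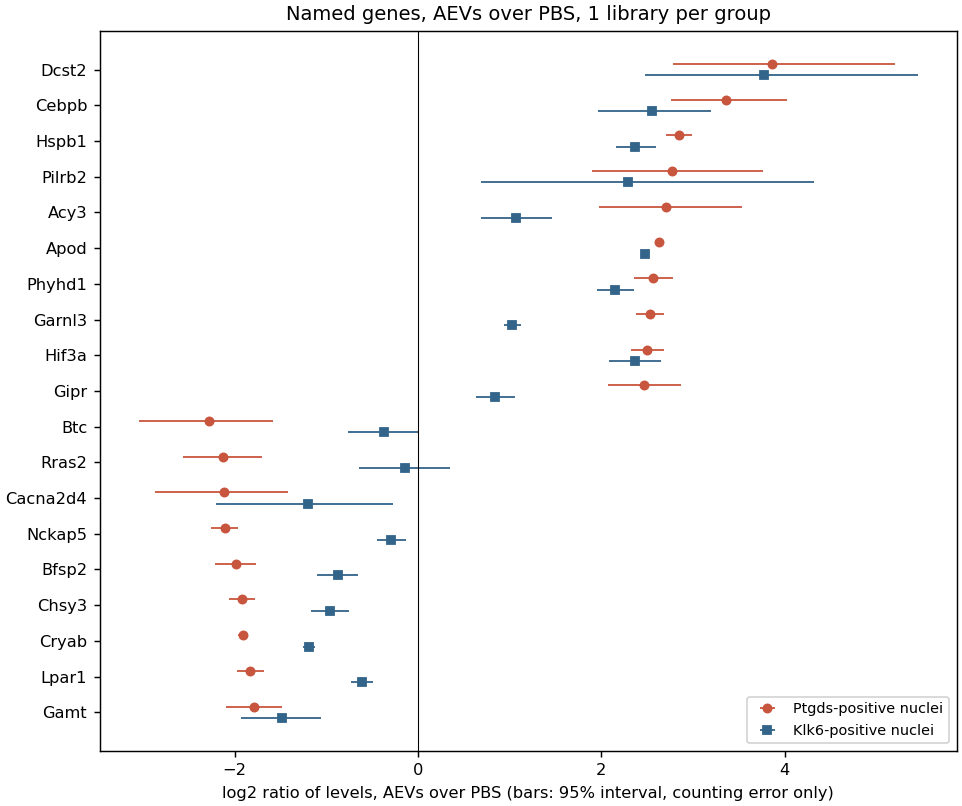
Log2 ratio of AEVs over PBS levels (horizontal axis) for the highest and lowest genes by the naming rule, in Ptgds-positive (circles) and Klk6-positive (squares) nuclei, with 95% intervals for counting error only. Garnl3, at 2.53 and 1.03, and Chsy3, at -1.92 and -0.96, lie farther from 0 in Ptgds-positive nuclei, a difference that was not tested, and Apod, at 2.63 and 2.48, lies about as far in both.

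Lists of genes are described by how many of their measured members were higher or lower in AEVs members, beside 6.11% of all genes with at least 20 UMIs that were at least 2-fold higher and 2.62% at least 2-fold lower. By any amount, 61% of all these genes were higher, the share to set beside counts without a fold limit. Myelin structure, lipid and cholesterol genes had medians near 0, below the 0.11 of all genes. Of 15 myelin structure genes, the gate genes Mobp, Mog and Mag included, 8 were higher and 7 lower, none by 2-fold. Their median was 0.00, which either scaling above puts below 0. Cldn11, the claudin of myelin tight junctions, measured 2227 CPM in AEVs and 1635 CPM in PBS, while Nfasc, neurofascin of the paranode, measured 534 CPM in AEVs and 938 CPM in PBS. Of 14 genes of myelin lipid synthesis 6 were higher and 8 lower, median -0.02, with Cers2, ceramide synthase 2, at a log2 ratio of 0.70 and Ugt8a, which makes galactosylceramide, at -1.02. Of 20 cholesterol genes 8 were higher and 12 lower, median -0.02, and Insig1, a brake on cholesterol synthesis, was the one past 2-fold at 140.2 CPM in AEVs and 59.4 CPM in PBS. Apoe, the lipid carrier, measured 4634 CPM in AEVs and 2851 CPM in PBS.

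Transcription factors, channels and guidance genes had medians below 0. Of 12 oligodendrocyte transcription factors, the gate gene St18 included, 5 were higher and 7 lower, median -0.16. Nkx6-2, a homeobox factor of late differentiation, measured 201 CPM in AEVs and 95.6 CPM in PBS. Tcf7l2, an effector of Wnt signalling, measured 69.8 CPM in AEVs and 155 CPM in PBS. Of 13 genes for channels, junctions and pumps 4 were higher and 9 lower, median -0.16, with Car14, a membrane carbonic anhydrase, at 461 CPM in AEVs and 199 CPM in PBS and Hcn2 at 175 and 317 CPM. Of 16 guidance genes 4 were higher and 12 lower, median -0.53. Dcc, the netrin 1 receptor, measured 158 CPM in AEVs and 612 CPM in PBS, 3.88-fold lower, and Robo1, a receptor for Slit proteins, 182 and 413 CPM. In Klk6-positive nuclei the log2 ratios of Dcc and Robo1 were -1.94 and -1.62, against -1.95 and -1.18 in members. Of 18 growth factors and receptors 10 were higher and 8 lower, median 0.09.

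Stress lists moved in different directions. Of 18 glucocorticoid-responsive genes 15 were higher and 3 lower, 11 of them at least 2-fold higher, median 1.12, led by Cebpb, Sult1a1, a phenol sulfotransferase (32.2 CPM in AEVs and 3.30 CPM in PBS), and Hif3a. Zbtb16, a zinc finger repressor, ran the other way with 424 CPM in AEVs and 577 CPM in PBS, as did Tsc22d3, the glucocorticoid-induced leucine zipper, with 123 and 154 CPM. Of 11 heat shock chaperones 2 were higher and 9 lower, 4 of these at least 2-fold, median -0.47, with Hspa1b, an inducible HSP70, at 10 UMIs in AEVs and 47 in PBS. Of 11 immediate early genes 2 were higher and 9 lower, median -0.82, with Egr1 at 27 UMIs in AEVs and 65 in PBS and Fosb at 0 and 21, at least 8.31-fold lower against a floor of 3 counts. Both cold-inducible RNA-binding genes were higher, Rbm3 at 173 CPM in AEVs and 49.8 CPM in PBS and Cirbp at 78.9 and 27.0 CPM. Of 17 p53 targets and apoptosis genes 13 were higher and 4 lower, median 0.27, with Bbc3, the cell death protein PUMA, at 17.1 CPM in AEVs and 5.40 CPM in PBS, while most others lay within 2-fold. Of 11 genes of the integrated stress response 8 were higher, median 0.42, with Nupr1, a stress-induced chromatin protein, at 48.4 CPM in AEVs and 17.7 CPM in PBS. For this list and the p53 list, the matching share of all genes higher by any amount was 61%.

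Genes of injured oligodendrocytes were split. Of 13 measured 9 were higher and 4 lower, median 0.23. Serpina3n measured 188 CPM in AEVs and 79.1 CPM in PBS, a log2 ratio of 1.25 (1.10 to 1.39) against 0.63 (0.52 to 0.74) in Klk6-positive nuclei, and C4b, a complement component, 489.7 and 224 CPM, 1.13 (1.04 to 1.21) against 0.35 (0.27 to 0.42). Il33 ran the other way at 208 CPM in AEVs and 654 CPM in PBS, 3.15-fold lower, with a ratio of -1.65 in both members and Klk6-positive nuclei. It was found at 1000 UMIs per nucleus in 18.5% of AEVs and 47.1% of PBS members, and without thinning in 2.02% of AEVs and 5.09% of PBS nuclei of the neuron gate. Of 16 antioxidant genes 13 were higher, median 0.36, led by Nqo1, a quinone reductase, with 102 UMIs in AEVs and 21 in PBS, and Cat, catalase, was lower with 29.5 and 51.6 CPM. Of 15 interferon response genes 13 were higher, none by 2-fold, median 0.29. Of 10 iron genes 8 were higher, median 0.44, with Fth1, the ferritin heavy chain, at 5287 CPM in AEVs and 2838 CPM in PBS, of 13 clock genes 12, median 0.37, and of 8 genes of axon energy support 4, median 0.13. Pdk4, which limits pyruvate oxidation, measured 71.8 CPM in AEVs and 18.5 CPM in PBS. With 61% of all genes above 0, counts of higher genes in the antioxidant, interferon, iron and clock lists stand above that share by a few genes each.

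**Figure D5:**
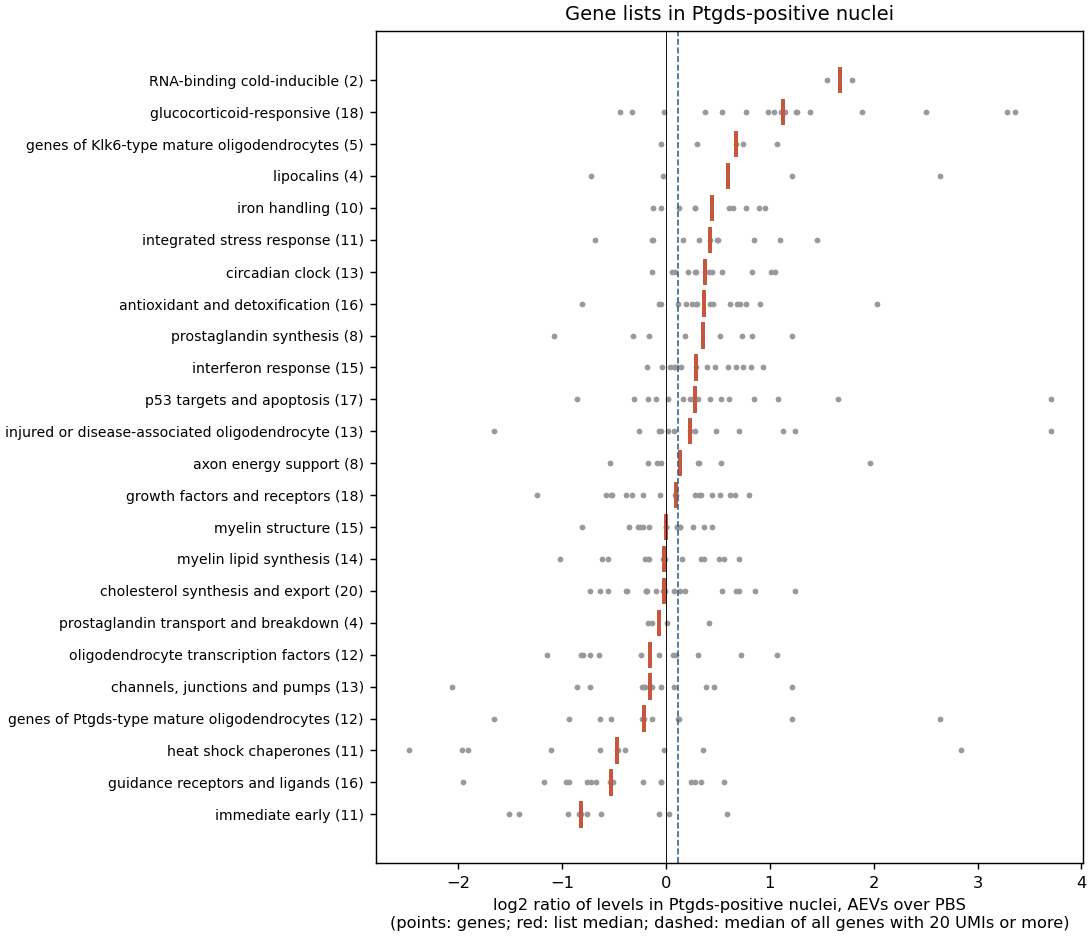
Log2 ratio of AEVs over PBS levels in Ptgds-positive nuclei (horizontal axis) for each measured gene (points) of the gene lists (vertical axis, number of measured genes in parentheses), with the list median as a red bar and the median of all genes, 0.11, as a dashed line. Glucocorticoid-responsive genes have a median of 1.12 and immediate early genes one of -0.82, where Fosb, with no UMI in AEVs, is not drawn.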

How the data were processed

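Counts of UMIs per gene and nucleus were deposited by the authors as 1 matrix per library, not normalized. Per the labels' protocols, nuclei of frozen spinal cord tissue were made into droplet libraries that capture the 3-prime end of RNA. The submitters' processing notes name mm10 and Seurat, while no source used here gives the aligner, the annotation, the strand of counting or any removal of free RNA or doublets.

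Nuclei were filtered and gated by the thresholds stated in the report. The members and gene lists were chosen with earlier results of these data known. Counts were summed per library and set and divided by the set's UMIs to CPM. Ratios of AEVs over PBS carry exact conditional binomial intervals, shares Clopper-Pearson intervals and levels exact Poisson intervals, each at 95% and covering only the error of counting. Genes were ratioed at 20 or more UMIs over both libraries. Named genes are the 10 highest and 10 lowest at 50 or more UMIs and 2% of nuclei in the higher set, ranked by ratio (members against others by the smaller ratio of the 2 libraries, and 5 each way against single sets), and the 3 highest and 3 lowest of each list, and any gene of the prostaglandin, lipocalin and 2 oligodendrocyte type lists. A pooled level of at least 0.25 of that in the highest other class was required. It was the members' level, or the compared set's level for genes named as lower in members than in that set. Mitochondrial, ribosomal protein, hemoglobin and predicted genes and the 13 genes of the rule were left out. Some genes that meet this rule are not reported here. Detection was compared after thinning to 1000 UMIs per nucleus, which left out 153 AEVs and 77 PBS members. Scrublet, in scanpy 1.11.5, called 124 AEVs and 59 PBS members as doublets, which were kept in the main values and removed in an alternative. Other alternatives were TMM or median scaling, other depth, mitochondrial, gate and Ptgds limits and thinned counts, and those on at least 10 Ptgds UMIs, at least 20 per 10000, no Ptgds condition, Opalin in its place and other classes' gates were added after seeing the data. Ratio code was tested on simulated data. Positions are those of GENCODE M21 (32158 of 32285 identifiers found) and promoters those of RefSeq. Versions were Python 3.11.15, numpy 2.4.6, scipy 1.17.1 and pandas 2.3.3.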

Additional observations from a re-analysis of the deposited data

Results flagged for a closer look

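Pdgfra, the platelet-derived growth factor receptor of oligodendrocyte precursors, is listed for a closer look because its ratio ran in opposite directions in the 2 oligodendrocyte sets. In Ptgds-positive nuclei it measured 16.8 CPM in AEVs and 10.96 CPM in PBS, a log2 ratio of 0.62 (0.20 to 1.05), and in Klk6-positive nuclei the log2 ratio was -0.76 (-1.43 to -0.11). With 1 library per group the difference between these ratios was not tested. The summed level of the precursor markers in Ptgds-positive nuclei was 557 CPM in AEVs and 580 CPM in PBS, and 92 AEVs and 84 PBS members passed the precursor gate.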

How the results depend on the processing

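No paired analysis was possible because each group is 1 library and no result comes from a test. Leaving out a replicate was not possible either. The log2 ratio of the share of members, 0.28, was 0.36 with the conditions applied after thinning. Under alternatives added after seeing the data and not thinned, it was 0.43 with at least 10 Ptgds UMIs and -0.10 with Opalin in place of Ptgds. The 101 genes higher than in other oligodendrocytes became 39 with Opalin in place and 159 without nuclei that pass another class's gate. The 298 lower genes became 178 after thinning and 418 with at least 20 Ptgds UMIs per 10000, the latter an alternative added after seeing the data. The number of genes at least 2-fold higher in AEVs members, 277, ranged from 200 to 349 and the number lower, 133, from 95 to 181. Of single genes, Hpgds reversed to -0.37 without nuclei called as doublets. Opalin (0.082), Slc1a2 (0.23), Btg2 (0.18), Slc7a11 (0.42) and Cntf (-0.18) reversed with Opalin in place, and Btg2 (0.78) and Slc7a11 (0.14) without nuclei of another class's gate. List medians reversed for microglia markers (-0.051 without called doublets and -0.0011 with at least 10 Ptgds UMIs), neuron markers (0.15 thinned), Schwann cell markers (-0.20 with Opalin in place), lymphocyte markers (0.35 thinned) and prostaglandin synthesis (-0.062 without called doublets and -0.0047 thinned). The cause of these changes was not tested. Log2 ratios ranged from 3.59 to 4.25 for Cdkn1a, 2.47 to 2.68 for Apod, -1.75 to -1.37 for Il33 and 1.10 to 3.46 for Hspb1. At about 2000 UMIs per nucleus, genes near the limit of 50 UMIs per set carry intervals of more than 1 log2 unit in width.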
